A study of Mus musculus with 14 samples.

Results

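The genes described here were 36 genes of neuron differentiation and of the neuronal cytoskeleton, taken by symbol from a list of neurofilaments, growth cone and microtubule proteins, neuronal RNA-binding proteins, neuronal transcription factors, axonal adhesion molecules and long non-coding RNAs. Each symbol matched 1 row among the 49315 genes counted. RNA was sequenced from primary microglia, which are brain-resident macrophages, cultured from the forebrains of C57BL/6 mice at postnatal day 6 to 7. The TIMP2 KO group held 7 libraries from mice lacking TIMP2, a secreted inhibitor of matrix metalloproteinases, and the WT group held 7 libraries from wild-type mice. Each library came from its own pool of 5 pups of mixed sex, so the pool is the replicate, and both genotypes were selected with CD11b microbeads and plated in the same way. The deletion was not limited to microglia, so any other forebrain cells carried into a KO culture were KO too.

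A young neuron first expresses basic helix-loop-helix and SOX transcription factors, then doublecortin, stathmins and collapsin response mediator proteins that remodel microtubules in the growing axon, and later neurofilaments that fill the mature axon. Hu, RBFOX and CELF proteins steer splicing and RNA stability in neurons, and L1-type molecules, contactins and NCAM hold axons together. Most of these genes are chiefly neuronal, but several are not confined to neurons: NCAM1 is also found on astrocytes and on oligodendrocyte precursors, CNTN2 on myelinating oligodendrocytes, and SOX4 in many tissues.

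Total counts were between 38875344 and 48070236 per library. Timp2 was at 397.6 to 495.1 CPM (counts scaled to the size of the library) in WT and at 119.6 to 129.2 CPM in KO, which matched every label (log2 fold change -1.92, SE 0.046, Benjamini-Hochberg adjusted p = 1.533e-12 in edgeR's quasi-likelihood test). The 11 microglia markers summed to 9237 to 11829.7 CPM in all 14 libraries, with Csf1r, the receptor microglia need to survive, at 463.6 RPKM (CPM per kilobase of exon) and Tmem119 at 1.96 RPKM. The 17 astrocyte markers summed to 39.9 CPM in KO replicate 5 and to 390.9 CPM in WT replicate 4, and of these genes 0 were without a count in all libraries. The cultures thus carried varying amounts of RNA with an astrocyte signature, and the 2 libraries with most of it were WT replicates 3 and 4. In bulk RNA, fewer cells of a type and less RNA per cell cannot be told apart.

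Most of the 36 genes were present, but at low levels. At least 1 count was found in every library for 35 of them and at least 10 counts in every library for 29. Only 9 had a mean of at least 1 RPKM. Together the 36 genes summed to 144.8 CPM at the lowest, 254.9 CPM at the median and 351.7 CPM at the highest of the WT libraries. In KO the same sum was 119.5 CPM at the lowest, 200.1 CPM at the median and 273.3 CPM at the highest. This was 0.0119% to 0.0352% of the counted reads, and the mean in KO was 0.839 times that in WT, with ranges that overlapped widely.

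Sox4, a SOXC factor that keeps differentiating neurons on their course, was the most abundant member at 12.9 RPKM and made up 27.6% of the summed CPM. Its level was 40.7 to 76.6 CPM in WT, with a median of 65.8, and 38.3 to 76.4 CPM in KO, with a median of 62.7. The next were Uchl1, a ubiquitin hydrolase abundant in neurons, at 4.22 RPKM, Gap43, a growth cone membrane protein, at 3.00 RPKM, Elavl4, the Hu protein HuD, at 2.70 RPKM, and Stmn3, a microtubule-destabilising stathmin, at 2.24 RPKM. At the other end, Tbr1, a factor of deep-layer cortical neurons, had 0 to 7 counts per library and was the 1 member that did not pass the filter on low counts. Bcl11b, a factor of corticospinal and striatal neurons, was at 0.043 RPKM, and Nefh, the heavy neurofilament subunit, at 0.068 RPKM. The other two neurofilament triplet genes were also low, Nefl at 0.127 and Nefm at 0.162 RPKM, while the alpha-internexin gene Ina reached 0.652 RPKM. The SD of the libraries was a large part of the mean for the low genes, and their order is therefore loose.

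Levels of many members differed severalfold between libraries of the same genotype. Dlx1, a homeobox factor of forebrain interneurons, spanned 0.070 to 3.47 CPM in KO and 0.395 to 2.59 CPM in WT. Dpysl3, a collapsin response mediator protein, spanned 3.01 to 42.6 CPM in WT and 2.27 to 22.6 CPM in KO. Elavl4 was the most even, from 11.0 to 17.3 CPM over all 14 libraries, a ratio of highest to lowest of 1.58. The lowest WT library was replicate 5 for 21 of the 36 genes, and the lowest KO library was replicate 5 for 21 of them. The highest WT library was replicate 3 or 4 for 21 genes and replicate 2 for 13, and the highest KO library was replicate 1 or 2 for 25.

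**Figure D1:**
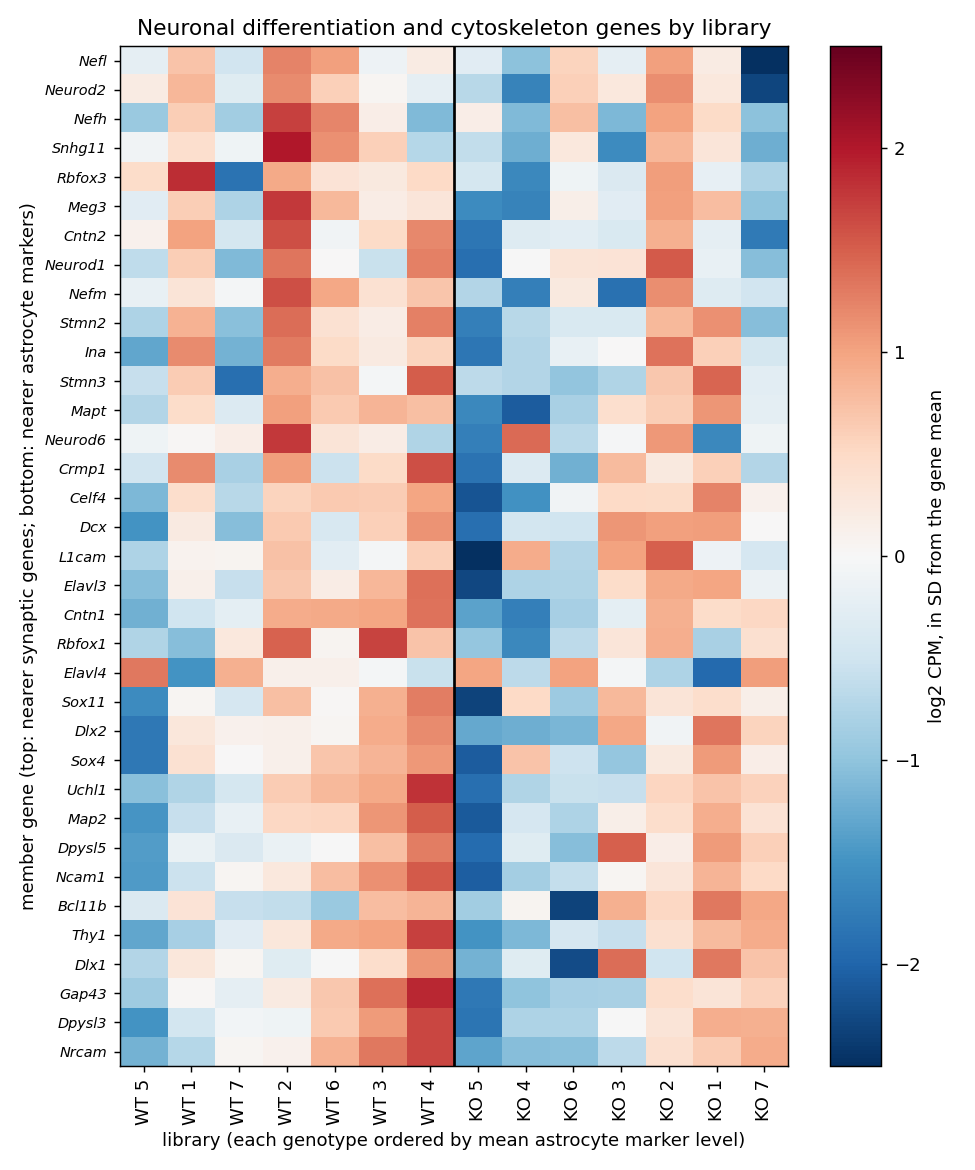
Level of the 35 tested members in each library, as log2 CPM in SD from the mean of each gene over all libraries, with libraries of each genotype ordered by their mean astrocyte marker level. Genes are ordered by the difference between their correlation with astrocyte markers and with synaptic genes. Most of the lower rows, such as Uchl1, Gap43 and Nrcam, are darkest red in WT 4, upper rows such as Nefh, Snhg11 and Meg3 in WT 2, and KO 5 is blue in all rows but Elavl4 and Nefh.

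The members varied together across cultures. After the mean of each genotype was subtracted from log2 CPM, the median Pearson correlation over the 595 pairs of tested members was 0.527. Of these pairs 52.8% were above 0.5 and 12.3% below 0. Over all pairs of the 15700 tested genes the median was 0.00 and 9.23% were above 0.5. The median was 0.558 within the 7 WT libraries and 0.543 within the 7 KO libraries. Without WT replicates 3 and 4, a setting chosen after seeing the data, it was 0.533. These correlations are descriptions over 14 libraries that share their preparation. Over the members with a mean of at least 50 counts the median was 0.624.

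Growth cone and microtubule genes were the tightest group by the median. Over the 36 pairs of the 9 genes the median correlation was 0.749, and 0% of pairs were negative. No pair was negative among the neurofilaments or the adhesion molecules either. The lowest pair of the neurofilaments (0.572) lay above the lowest of the growth cone group (0.474). Map2, which bundles dendritic microtubules, followed Dpysl3 at r = 0.96. Dcx, the microtubule-binding protein of migrating neuroblasts, followed Elavl3, the Hu protein HuC, at r = 0.98, and did so within WT (0.97) and within KO (0.99). Stmn2 and Stmn3 had r = 0.86. Dlx1 and Dlx2, neighbouring homeobox genes on chromosome 2, had r = 0.85, and Dlx1 and Bcl11b had r = 0.89. Neurod1, a basic helix-loop-helix factor, followed Cntn2, an axonal contactin also called TAG-1, at r = 0.94. Other relatives did not go together over all libraries, and their values differed between the genotypes. Rbfox1 and Rbfox3, splicing factors of which the second is the neuronal antigen NeuN, had r = 0.13. It was -0.21 within WT and 0.68 within KO. Neurod2 and Neurod6 had r = 0.072, with 0.74 within WT and -0.11 within KO. These 2 genes rest on a median of 26 and 23.5 reads per library.

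Elavl4 went against the rest. Its correlation with the mean of the other members was -0.64, and it was the 1 member with a negative value. It was negative with its paralog Elavl3, with r = -0.66 over all libraries, -0.63 within WT and -0.68 within KO. With the mean of the microglia markers Elavl4 had r = 0.85, again in both genotypes (0.85 in WT and 0.87 in KO), and no other member passed 0.5. Elavl4 was at its highest in WT replicate 5 and KO replicate 7 and at its lowest in WT replicate 1 and KO replicate 1. Those last 2 libraries had the lowest summed microglia markers of their genotypes, 9237 and 9622.5 CPM.

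The promoters of the 2 Hu genes with opposite patterns, and that of Meg3, the member nearest the synaptic genes, are shown for comparison. They are RefSeq sequences of GRCm38.p6, from 250 bases before to 50 bases after an annotated start, written 5′ to 3′ on the strand of the gene. Capitals mark the letters CAGCTG or CAGATG, forms of the E-box that helix-loop-helix factors bind, TGACGTCA, the cAMP response element, and TATAAA, the TATA box, on either strand, where overlapping matches form a longer run. The Elavl3 promoter lies at chr9:22051974-22052273 (minus strand). Elavl4 has 4 listed starts, of which an internal one at chr4:110287478-110287777 (minus strand) is printed. The Meg3 promoter, at the outer of its starts, lies at chr12:109540746-109541045 (plus strand).
Elavl3: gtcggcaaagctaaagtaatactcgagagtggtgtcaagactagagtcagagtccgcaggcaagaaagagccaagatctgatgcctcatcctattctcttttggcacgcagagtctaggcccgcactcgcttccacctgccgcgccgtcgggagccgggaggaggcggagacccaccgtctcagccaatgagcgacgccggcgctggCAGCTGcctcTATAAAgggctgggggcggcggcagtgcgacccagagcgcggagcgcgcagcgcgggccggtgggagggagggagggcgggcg
Elavl4: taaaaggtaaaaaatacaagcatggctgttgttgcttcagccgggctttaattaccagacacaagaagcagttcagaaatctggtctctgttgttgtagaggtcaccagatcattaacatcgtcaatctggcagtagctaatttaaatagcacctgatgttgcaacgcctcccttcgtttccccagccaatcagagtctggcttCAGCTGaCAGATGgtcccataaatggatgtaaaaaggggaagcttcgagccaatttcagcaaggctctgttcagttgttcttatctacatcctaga
Meg3: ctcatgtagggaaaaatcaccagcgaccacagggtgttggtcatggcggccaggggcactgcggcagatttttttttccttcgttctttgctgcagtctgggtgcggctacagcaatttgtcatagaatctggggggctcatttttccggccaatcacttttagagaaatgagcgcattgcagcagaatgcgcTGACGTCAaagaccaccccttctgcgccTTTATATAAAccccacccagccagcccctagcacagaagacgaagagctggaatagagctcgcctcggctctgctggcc
CAGCTG stood in both printed Hu promoters, and CAGATG lay beside it in that of Elavl4 alone. Of the Elavl4 starts not printed, one that overlaps the printed window held both, another held CAGATG alone, and the outermost held neither. In all, 36 promoters of 26 members were listed. The other 10 members, among them Nefl, Nefm, Nefh, Gap43, Mapt and Stmn2, had no listed promoter and were not searched. CAGCTG was in 22.2% of them against 16.3% of all 32851 promoters, and CAGATG in 19.4% against 17.2%. The CAGATG share was 7 promoters of 4 members, with several starts of Elavl4 among them. TGACGTCA was in 2.78% (1 promoter, Meg3) against 1.79%, and TATAAA in 16.7% against 13.6%. CAGCACC, a half-site of the element bound by the neuronal repressor REST, was in 0% of the 36 listed against 7.14%. This says nothing of the members without a listed promoter. The letters are a description of these windows, and which start was used in the cultures was not measured.

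The mean level of the members followed that of several other cell types. With the mean of 15 tested astrocyte markers it had r = 0.86 and Spearman's rho = 0.79 over 14 libraries, r = 0.89 within WT and 0.85 within KO, and r = 0.80 without WT replicates 4 and 5, the 2 libraries farthest from the median. With 33 synaptic genes it had r = 0.86 (rho = 0.85), with 13 oligodendrocyte lineage markers 0.93 (rho = 0.92), with 6 neural progenitor markers 0.88 (rho = 0.84) and with 8 mural and fibroblast markers 0.88 (rho = 0.92). With 4 choroid plexus and ependymal markers it was 0.68 (rho = 0.77). With 6 endothelial markers it was 0.12 (rho = 0.073) and with 11 microglia markers -0.29 (rho = -0.51). Related neuronal genes outside the list followed the members closely: r = 0.97 for 27 cytoskeleton and RNA-binding genes, 0.96 for 13 adhesion genes and 0.93 for 17 transcription factors. All these lists rest on the same 14 libraries, and what part each cell type has in the members' levels was not tested.

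**Figure D2:**
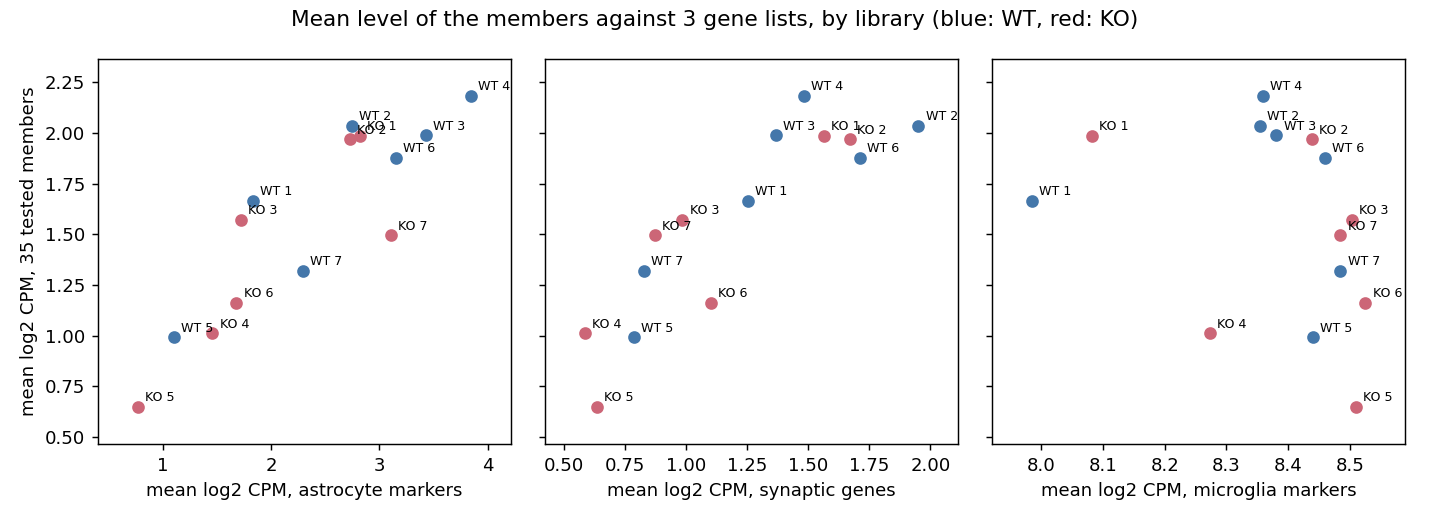
Mean log2 CPM of the 35 tested members (vertical) in each library against the mean log2 CPM of astrocyte markers, synaptic genes and microglia markers (horizontal), with WT in blue and KO in red. KO 5 is lowest for the members and for astrocyte markers and WT 4 highest for both, while WT 2 is highest for synaptic genes.

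Single members differed in how closely they followed the astrocyte markers and the synaptic genes. For 8 members the correlation with the astrocyte mean was above 0.9. These were Thy1, a surface glycoprotein of neurons (r = 0.99), Nrcam, an L1-type adhesion molecule (0.98), Gap43, Dpysl3 and Uchl1 (0.97 each), Ncam1 (0.96), Map2 (0.94) and Cntn1, a contactin of nodes and paranodes (0.93). Their levels followed WT replicate 4, with Thy1 at 6.37 CPM there against 0.637 CPM in WT replicate 5. Some of the 8 had a still higher correlation with another list. This was the neural progenitor markers for Dpysl3 (0.99), Ncam1 (0.98) and Map2 (0.97), and the oligodendrocyte lineage markers for Cntn1 (0.98).

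For 16 members the correlation with the synaptic genes was higher than that with the astrocyte markers. Meg3, an imprinted long non-coding RNA with high levels in neurons, led with r = 0.94 (0.92 within WT, 0.98 within KO) against 0.44 with astrocyte markers. Stmn2 and Ina followed with 0.88 each, and Mapt, which encodes tau, with 0.84. The correlation of Nefl, Nefh and Neurod2 with astrocyte markers was near 0 (-0.030, 0.12 and -0.054), against 0.67, 0.73 and 0.65 with synaptic genes. Nefm had 0.46 with astrocyte markers and 0.78 with synaptic genes. Snhg11, a small nucleolar RNA host gene of neurons, had 0.17 against 0.74 and followed Nefh at r = 0.95. Nefl, Nefm, Nefh, Neurod2 and Snhg11 were all highest in WT replicate 2 and KO replicate 2. Neurod6 was near 0 for both (0.058 and 0.19). Dlx1 and Bcl11b were low with synaptic genes (0.19 and 0.16) and intermediate with astrocyte markers (0.53 and 0.49).

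**Figure D3:**
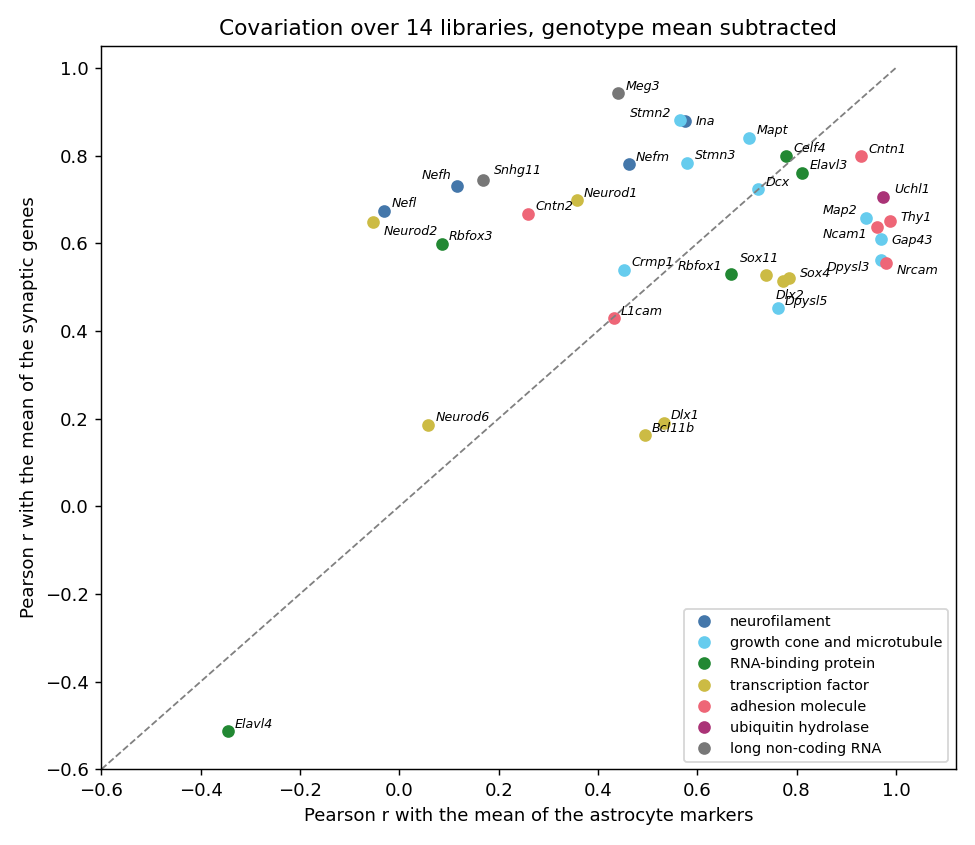
Pearson correlation of each of the 35 tested members with the mean of the synaptic genes (vertical) against that with the mean of the astrocyte markers (horizontal), over 14 libraries with the genotype mean subtracted, coloured by role. The dashed line marks equal values. Meg3, Stmn2, Ina and the neurofilaments lie above it, 8 members lie past 0.9 on the horizontal axis, and Elavl4 is negative on both axes.

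The genes outside the list with the highest mean correlation with the tested members were Mapk8ip2 (0.663), a neuronal JNK scaffold, Celsr3 (0.659), a cadherin of axon tract formation, Scg3 (0.656), a secretory granule protein, Peg3 (0.656), an imprinted zinc-finger gene, and Arhgap20 (0.652). Apbb1 (0.649), an adaptor of the amyloid precursor protein, Astn2 (0.647), Ntm (0.647), a neural adhesion molecule, Tyro3 (0.646), a TAM receptor kinase, and Tro (0.644) completed the first 10. Their log2 fold changes between KO and WT were between -0.70 and 0.12, with adjusted p from 0.943 upwards.

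The comparison of KO with WT asks whether loss of TIMP2 changes these transcripts in microglial cultures. No member passed edgeR's test. Of 35 tested members 0 had an adjusted p under 0.05, against 3 of 15700 tested genes (0.0191%), and their adjusted p lay between 0.943 and 0.990. DESeq2 called 0 of them without a replicate block and 1, Cntn2, with it. The study's own model held batch as a covariate, which the labels do not give per library, so the fit holds genotype alone and the part of batch was not tested. With an unadjusted p under 0.05 there was 1 member below WT in edgeR, against 1.62% of all tested genes, and 0 members above WT, against 1.75%. With a replicate block edgeR gave 7 members such a p, all below WT, where 424 of 15700 genes had one below WT. DESeq2 without the block gave 4 members such a p, all below WT. The share of all genes in that DESeq2 fit is not given here, and the edgeR shares are no background for it. In 30 of the 35 the fitted fold change was below 0, as in 49.2% of all tested genes, with a median log2 fold change of -0.25 against 0.00 over all tested genes. The median SE of the members was 0.26, larger than the median of 0.078 over all genes, and members that vary together are not independent of each other.

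The count and the median moved with 2 libraries. Without WT replicates 3 and 4, the 2 with the most astrocyte marker RNA, 24 of the 35 were below 0 and the median was -0.07. Over all genes tested in this setting 7674 of 15915 were below 0, with a median of 0.003. The log2 ratio of the summed level of the members went from -0.25 to -0.05. With all libraries 15 of 15 tested astrocyte markers were below 0 (median -0.69). Both libraries left out are WT and were chosen for these markers, so a shift toward higher fold changes in the markers and in the members that follow them comes with the choice and supports nothing. The sum was lower by less without WT replicate 4 alone (log2 ratio -0.14) and without KO replicate 5 alone (-0.16). The part of the astrocyte signature in the members' fold changes was not tested further.

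**Figure D4:**
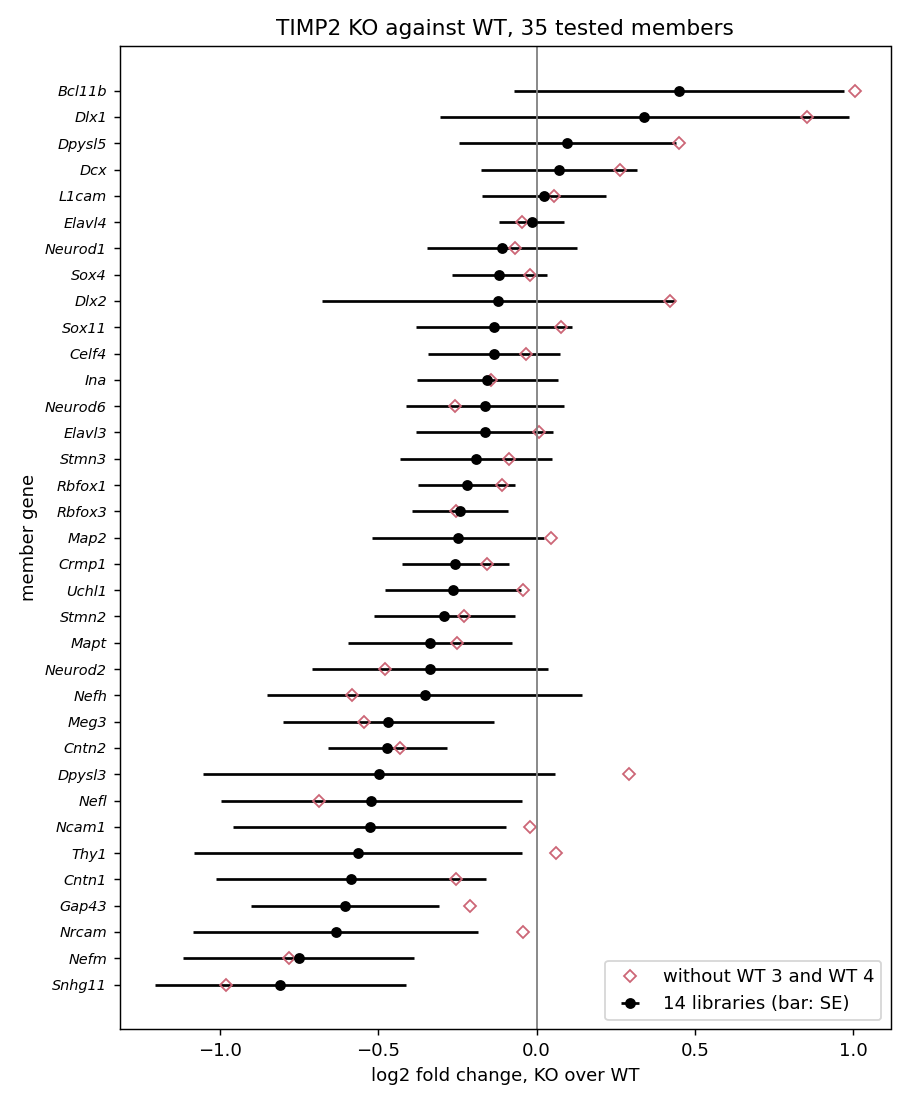
Log2 fold change of KO over WT for the 35 tested members with 14 libraries (black, bar: SE) and without WT replicates 3 and 4 (red diamonds). Most black points lie left of 0, and the diamonds of Dpysl3, Thy1, Ncam1 and Nrcam lie near or right of 0 while those of Snhg11, Nefm and Nefl stay left of it.

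Members can be set side by side by which of 2 lists, the astrocyte markers or the synaptic genes, they correlated with more. The 8 with a correlation above 0.9 with astrocyte markers had a median log2 fold change of -0.55 with all libraries. Without WT replicates 3 and 4 it was -0.03, and 5 of 8 were below 0. The 19 members with a higher correlation with astrocyte markers than with synaptic genes, these 8 included, had a median of -0.16 with 14 of 19 below 0. Without the 2 libraries it was 0.04 with 8 of 19 below 0. The 19 include Elavl4, negative with both lists (-0.35 and -0.51), and Dcx, with 0.72 for each. Some of them had a higher correlation with mural and fibroblast markers, such as Dcx (0.91), Elavl3 (0.90) and Sox11 (0.87). The 16 with the higher correlation with synaptic genes had -0.31 with all libraries and -0.26 without the 2, and 16 of 16 were below 0 in both. Some of the 16 also had a higher correlation with another list. This was the mural and fibroblast markers for Crmp1 (0.83 against 0.54 with synaptic genes) and Neurod6 (0.34 against 0.19). For Mapt (0.85 against 0.84) and Celf4 (0.82 against 0.80) it was the oligodendrocyte lineage markers. The members were grouped, and the 2 libraries chosen, by values in the same libraries, so no test was made of the difference.

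Among adhesion molecules Cntn2 had the smallest p of all members. Its level was 4.18 CPM at the lowest, 5.54 CPM at the median and 7.88 CPM at the highest in WT, and 2.74, 4.34 and 6.29 CPM in KO. The groups overlapped, with 6 of the 7 KO libraries below the WT median and 2 below the lowest WT library. The log2 fold change was -0.47 (SE 0.19, unadjusted p = 0.0239, Benjamini-Hochberg adjusted p = 0.943 over all tested genes, edgeR's quasi-likelihood test). Nrcam was at 5.91, 14.0 and 39.9 CPM in WT (lowest, median, highest) and at 5.36, 8.34 and 24.2 CPM in KO. Both groups reached down to nearly the same value, and 2 WT libraries, replicates 3 and 4, lay above all KO libraries. Its log2 fold change of -0.63 (SE 0.45, unadjusted p = 0.18 from the same edgeR fit) was -0.04 without these 2. Ncam1 (log2 fold change -0.53, SE 0.43), Cntn1 (-0.59, SE 0.43) and Thy1 (-0.57, SE 0.52) had errors nearly as large as the values. L1cam, which names the L1 family, was at 0.02 (SE 0.20), and it shares 100 bases of exon with the abundant Arhgap4 on the same strand.

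Of the neurofilaments, Nefm was at 0.725 CPM at the lowest, 1.01 CPM at the median and 2.09 CPM at the highest in WT, and at 0.260, 0.606 and 1.60 CPM in KO. Replicate 2 was the highest library of each genotype, and 5 of the 7 KO libraries lay below the lowest WT library. The log2 fold change was -0.75 (SE 0.37, unadjusted p = 0.058 from the edgeR fit over all genes), and -0.78 without WT replicates 3 and 4. Nefl (-0.52, SE 0.48), Nefh (-0.35, SE 0.50) and Ina (-0.16, SE 0.22) were also below 0 and within or near their errors. Nefl and Nefm lie on opposite strands of chromosome 14 and share 1108 bases of exon, and Ina shares 456 bases with the abundant Nt5c2 on the other strand. Some of these counts could belong to the neighbouring gene, since the strand setting of the counting is not given in the sources used here.

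Among growth cone and microtubule genes, 7 of 9 had fold changes below 0. Gap43 was at 2.77 CPM at the lowest, 4.61 CPM at the median and 9.84 CPM at the highest in WT, and at 1.83, 2.86 and 5.38 CPM in KO. The 3 highest WT libraries lay above all KO libraries, and 2 KO libraries lay below all WT libraries. Its log2 fold change of -0.61 (SE 0.30, unadjusted p = 0.060, edgeR fit over all genes) was -0.21 without WT replicates 3 and 4. Crmp1, a collapsin response mediator protein, was at 7.38, 10.2 and 13.5 CPM in WT (lowest, median, highest) and at 5.70, 8.28 and 11.0 CPM in KO, a log2 fold change of -0.26 (SE 0.17, unadjusted p = 0.15, same fit). Its groups overlapped over most of their range. Stmn2 (-0.29, SE 0.22), Stmn3 (-0.19, SE 0.24), Mapt (-0.34, SE 0.26), Map2 (-0.25, SE 0.27) and Dpysl3 (-0.50, SE 0.56) also lay below 0. Stmn3, among the 5 most abundant members per length, was at 1.29, 2.99 and 4.00 CPM in WT and at 1.75, 1.95 and 3.93 CPM in KO, so that its highest libraries were alike. Dcx (0.07, SE 0.25) and Dpysl5 (0.10, SE 0.34) were above 0 and within their errors.

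All 5 RNA-binding protein genes had log2 fold changes between -0.24 and -0.02. Rbfox3 was at 3.14 CPM at the lowest, 5.20 CPM at the median and 7.08 CPM at the highest in WT, and at 3.30, 4.35 and 5.92 CPM in KO. No KO library was below the lowest of WT, while 6 were below the WT median (log2 fold change -0.24, SE 0.15, unadjusted p = 0.13, edgeR fit over all genes). The nearer end of Rbfox3 lies 0.134 Mb from Timp2 on chromosome 11, and the 3 genes called in the whole fit were Timp2, its neighbour Engase and Gm11748. Mapt, Neurod2 and Nefh are on this chromosome too, 14.0 Mb or more from Timp2. Rbfox1 was at 3.31, 4.41 and 6.00 CPM in WT (lowest, median, highest) and at 2.94, 3.61 and 5.06 CPM in KO, a log2 fold change of -0.22 (SE 0.15, unadjusted p = 0.17, same fit) with overlapping groups. Elavl4 was at 11.7, 14.7 and 17.3 CPM in WT and at 11.0, 14.3 and 16.7 CPM in KO. Its log2 fold change of -0.02 had the smallest error of all members (SE 0.10). Elavl3 (-0.16, SE 0.22) and Celf4, a CELF family splicing and translation regulator (-0.13, SE 0.21), were within their errors.

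The 8 tested transcription factors had a median log2 fold change of -0.12, nearer 0 than the other roles. Sox4, the deepest counted member with 1551 to 3543 reads per library, had a log2 fold change of -0.12 (SE 0.15), and Sox11, its SOXC relative, -0.13 (SE 0.25). Neurod1 (-0.11, SE 0.24), Neurod6 (-0.16, SE 0.25) and Neurod2 (-0.34, SE 0.37) were below 0. Dlx2 (-0.12, SE 0.56), Dlx1 (0.34, SE 0.65) and Bcl11b (0.45, SE 0.52) had the widest errors, and Dlx1 shares 335 bases of exon with its antisense gene Dlx1as on the other strand. Dlx1 was highest in KO replicates 3 and 1, at 3.47 and 3.22 CPM, and the Dlx1 log2 fold change was -0.07 without the first and -0.0038 without the second. Tbr1 was at a mean of 0.082 ± 0.054 CPM in WT and 0.073 ± 0.051 CPM in KO (SD, n = 7) and was not tested.

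Both long non-coding RNAs had lower medians in KO, and Snhg11 is annotated as a coding gene in the annotation used. Snhg11 was at 1.01 CPM at the lowest, 1.99 CPM at the median and 5.23 CPM at the highest in WT, and at 0.590, 1.06 and 2.57 CPM in KO. The 2 highest libraries were both WT and 3 of the 7 KO libraries lay below all WT libraries (log2 fold change -0.81, SE 0.40, unadjusted p = 0.059, edgeR fit over all genes). Its fold change was the furthest from 0 of all members. It was -0.98 without WT replicates 3 and 4 and -0.48 without WT replicate 2, where it was highest. Meg3 was at 4.27, 7.33 and 15.3 CPM in WT (lowest, median, highest) and at 2.73, 5.46 and 10.5 CPM in KO (log2 fold change -0.47, SE 0.33), with replicate 2 again the highest of each genotype. Uchl1 was at 4.74, 8.03 and 11.5 CPM in WT and at 3.65, 5.55 and 8.22 CPM in KO (log2 fold change -0.26, SE 0.22), and this was -0.04 without WT replicates 3 and 4.

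**Figure D5:**
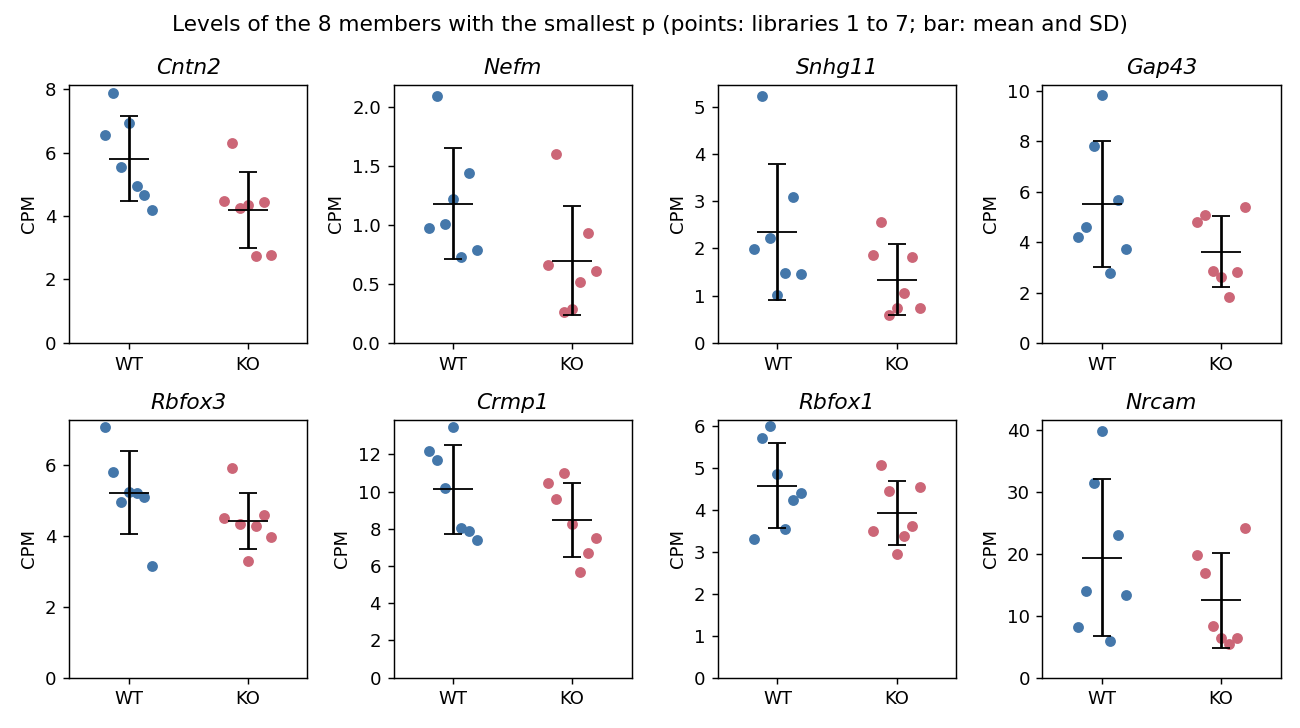
CPM of the 8 members with the smallest p, each point 1 library in the order of replicates 1 to 7, with the mean and SD of each genotype as black bars. WT and KO overlap in every panel, and the highest library is a WT library in each.

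None of the 36 genes had groups that did not overlap, and over all tested genes 0.0828% did not. The related neuronal genes outside the list gave a like picture, with 0 passing the adjusted p threshold in edgeR. Of 27 tested cytoskeleton and RNA-binding genes 25 were below 0 (median -0.15), of 13 adhesion genes 11 (median -0.44), of 17 transcription factors 13 (median -0.24) and of 33 synaptic genes 28 (median -0.30). Unadjusted p under 0.05 was reached by 1 of these, Gabrb1, a GABA-A receptor subunit, at 0.491 ± 0.164 CPM in WT and 0.335 ± 0.053 CPM in KO (SD, n = 7, log2 fold change -0.55, SE 0.21, edgeR fit). The other smallest p belonged to Rims1 (log2 fold change -0.59, SE 0.28) and Homer1 (-0.08, SE 0.044) of the synapse, to Cadm3 (-0.41, SE 0.23), Lsamp (-0.58, SE 0.34) and Ncam2 (-0.70, SE 0.42) of adhesion, to Ank2 (-0.21, SE 0.14), Rbfox2 (-0.21, SE 0.14) and Map1a (-0.56, SE 0.37) of the cytoskeleton and RNA binding, and to Prox1 (0.06, SE 0.054), Emx2 (-0.76, SE 0.66) and Insm1 (-0.24, SE 0.22) among transcription factors.

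Of the marker lists of other cells and of microglia, 0 genes passed the adjusted p threshold in edgeR, and 1, an astrocyte marker, had an unadjusted p under 0.05. Below 0 were 9 of 13 tested oligodendrocyte lineage markers (median log2 fold change -0.23), 5 of 6 neural progenitor markers (-0.53), 8 of 8 mural and fibroblast markers (-0.32), 4 of 4 choroid plexus and ependymal markers (-0.32), 2 of 6 endothelial markers (0.12) and 1 of 11 microglia markers (0.04). The astrocyte marker with an unadjusted p under 0.05 was S100b, a calcium-binding protein, at 1.89 ± 0.69 CPM in WT and 1.13 ± 0.41 CPM in KO (SD, n = 7, log2 fold change -0.74, SE 0.27, Benjamini-Hochberg adjusted p = 0.943, edgeR's quasi-likelihood test).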

How the data were processed

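Poly(A) RNA of 14 microglial cultures was sequenced as paired reads. Per the labels and the submitters' processing notes, the authors used Trimmomatic 0.36, STAR 2.5.2b, featureCounts of Subread 1.5.2 and DESeq2 with the build GRCm38. What the authors deposited is a table of raw, unnormalized counts with 1 row per Ensembl gene and 1 column per library. The strand setting and the annotation release are not given in the sources used here. The authors modelled batch as a covariate, but the labels give no batch per library, so genotype was the only term here. Of 49315 genes, 49056 were matched to GENCODE M21, and all 36 members were found.

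Low counts were removed by filterByExpr at its minimum of 10 counts and a total of 15, and libraries were scaled by TMM. KO was compared with WT by a two-sided quasi-likelihood test (edgeR 4.0.16, R 4.3.3). P-values were adjusted over 15700 genes after Benjamini and Hochberg, with 0.05 as the threshold. The fit was tested on simulated data. Log2 CPM used a prior count of 1, and RPKM is CPM per kilobase of union exon length. Covariation was computed in Python 3.11.15 with numpy 2.4.6. Each of the 91 pairs of libraries differed by more than counting noise (chi-square per degree of freedom of 6.37 or more).

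The members and the lists were chosen with earlier results of these data known, so no set was tested. Full statistics are given for the members with the 8 smallest p and levels for the 5 most abundant per length. From each other list at most the 3 genes with the smallest p were eligible for naming. The 10 non-members with the highest mean correlation and Timp2 were named too. Alternatives were other scalings, filters, DESeq2 1.42.0, a replicate block, other summaries of the level and of the covariation, and leaving out each library. One gene of the marker lists is not reported here by name.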

Additional observations from a re-analysis of the deposited data

Results flagged for a closer look

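In 2 of 74 comparisons of a library with the others of its genotype (36 members and their sum, in WT and in KO), a library stood further from its neighbour than Dixon's limit for 7 samples allows. Chance flags about 1 in 20 such groups. Neurod6 was at 0.934 CPM in WT replicate 2, with the next library at 0.580 CPM (gap over range 0.671). Dlx1 was at 2.59 CPM in WT replicate 4, with the next at 1.32 CPM (gap over range 0.578). WT replicate 2 was also the highest WT library for the neurofilaments and Meg3, and WT replicate 4 for the genes that followed astrocyte markers.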

How the results depend on the processing

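Under all alternatives the median log2 fold change of the members stayed below 0, between -0.36 and -0.07, and 29 to 34 of 35 tested members were below 0 (24 of 27 with the CPM filter, 31 of 36 with no filter), except for 24 of 35 without WT replicates 3 and 4. Leaving out each library in turn gave 3 to 4 genes called, 0 members called, 0 to 5 members with an unadjusted p under 0.05, 29 to 34 members below 0, medians of -0.36 to -0.18, log2 ratios of the sum of -0.35 to -0.14, a median pairwise r of 0.48 to 0.56 and an r with astrocyte markers of 0.81 to 0.90. The number of members with an unadjusted p under 0.05 was 0 without WT replicate 2, 2 without WT replicate 4 or KO replicate 1, 4 without WT replicate 5 and 5 without WT replicate 7 or KO replicate 2, against 1 with all libraries. It was 4 with no filter on low counts and 4 with DESeq2, which called 15 genes. The share of all genes with such a p in each of these settings is not given here, so these counts have no background. A filter of at least 1 CPM in at least 7 libraries kept 27 members. The r of the members with microglia markers was -0.08 without KO replicate 1 and -0.43 without WT replicate 1.

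The replicate numbers were not taken to pair the samples, as the labels name no shared batch or day. Deviations of same-numbered libraries correlated between -0.196 and 0.743, with 3 of 7 above 0.1. Of 14 libraries 3 correlated best with their own number in the other genotype. Whether the numbers mark the batches that the study modelled was not tested. With the replicate block, edgeR called 3 genes and 0 members, with 32 of 35 members below 0. It gave 7 members an unadjusted p under 0.05, all below WT. In that fit 921 of 15700 genes had such a p, 424 of them below WT, and 7775 were below 0. The median SE of the members was 0.21 with the block and 0.26 without it. With the block the SE rose for Gap43, Cntn1, Nrcam and Thy1 and fell for all other tested members. It went from 0.19 to 0.097 for Cntn2, from 0.40 to 0.20 for Snhg11 and from 0.45 to 0.51 for Nrcam. DESeq2 with the replicate block called 26 genes and 1 member, Cntn2 (log2 fold change -0.49, adjusted p = 0.0477), and gave 7 members an unadjusted p under 0.05. The share of all genes with such a p in this DESeq2 fit is not given here, so that count has no background. The adjusted p of Cntn2 was 0.469 with the block in edgeR and 0.684 or more in all other alternatives. With the block Dlx1 was at -0.10 (edgeR) and -0.24 (DESeq2), and L1cam at -0.038 and -0.035, against values above 0 without it.

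Fold changes near 0 changed sign when single libraries were left out, with ranges of -0.59 to 0.0054 for Nefh, -0.028 to 0.19 for Dcx, -0.11 to 0.28 for Dpysl5, -0.062 to 0.038 for Elavl4, -0.068 to 0.69 for Dlx1, -0.51 to 0.13 for Dlx2 and -0.091 to 0.14 for L1cam. Without both WT replicates 3 and 4, chosen after seeing the data, Map2 (0.044), Dpysl3 (0.29), Elavl3 (0.0091), Sox11 (0.078), Dlx2 (0.42) and Thy1 (0.062) were above 0. The cause was not tested. Nefl, Nefh, Bcl11b, Neurod2 and Neurod6 rest on a median of under 30 reads per library, which limits the precision of their fold changes.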
